A study of Mus musculus with 4 samples.

Results

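The T cells of mouse liver were examined among hepatic immune cells profiled by droplet single-cell RNA sequencing, on a control diet and on a diet that induces nonalcoholic steatohepatitis (NASH). A cell was taken as a member when it carried at least 2 unique molecular identifiers (UMIs, 1 per captured mRNA molecule) of Cd3d, Cd3e and Cd3g together and fewer than 5 UMIs of C1qa, C1qb and C1qc per 1000. It also had to lack any UMI of Ncr1, Cd79a and Siglech, which mark NK cells and type 1 innate lymphoid cells (ILC1), B cells and plasmacytoid dendritic cells. The rule found 175 T cells among 6237 cells that had at least 200 genes and at most 10% mitochondrial UMIs. They were 19 cells in control 1, 34 in control 2, 64 in NASH 1 and 58 in NASH 2. A cell with a UMI of Cd8a or Cd8b1 was called CD8, a cell with a UMI of Cd4 was called CD4, and the remainder were called neither. The members were thus chosen by the UMIs of Cd3, C1q, Ncr1, Cd79a and Siglech, whose own levels describe the rule and support nothing else. The co-receptor genes split the members and did not choose them.

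All 4 libraries came from livers of C57BL/6J mice and held CD45+ CD146- non-parenchymal cells collected by fluorescence-activated sorting, so that cells bearing CD146, such as sinusoidal endothelium, were gated out. The control group (2 libraries) received a diet labelled only control, and the NASH group (2 libraries) a diet labelled nash-amln, a name used for the Amylin liver NASH model diet rich in fat, fructose and cholesterol. The livers of both groups were perfused and digested with flavopiridol, an inhibitor of transcription elongation, and the sources used here state neither age, sex nor length of feeding. The labels do not tie a library to an animal or to a pool of animals, so every p-value below rests on library-to-library spread, which may be technical.

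T cells recognise peptide or lipid antigens through a T cell receptor that signals through the CD3 chains. CD8 T cells read peptides on MHC class I and can kill with granzymes and perforin, while CD4 T cells read peptides on MHC class II. The liver also holds many T cells with neither co-receptor, among them NKT cells, which recognise lipids on CD1d, and gamma-delta T cells. Ccl5, Nkg7 and Cxcr6 are commonly expressed by liver-resident T cells, and Ly6C is a surface antigen of memory CD8 T cells as well as of inflammatory monocytes.

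Beside the CD3 chains that the rule required, other genes of the T cell lineage were measured. Cd247, Lck, Lat and Thy1 had UMIs in members of all 4 libraries, and no receptor gene whose symbol starts Trav, Trbv, Trac or Trbc was among the 27998 genes of the table. Cells with only 1 Cd3 UMI, just outside the rule, numbered 24, and 16.7% of them had a Thy1 UMI, a pan-T surface protein, against 40% of the 10 members with exactly 2. At the C1q limit, 5 members had 4 to under 5 C1q UMIs per 1000 and 4 cells with enough Cd3 had 5 to under 6. A further 121 cells had the Cd3 UMIs but too much C1q, the complement subunits made by liver macrophages, and were not members: 7, 3, 65 and 46 in control 1, control 2, NASH 1 and NASH 2. The exclusion genes removed 9 cells for Ncr1, 22 for Cd79a and 7 for Siglech, some for more than 1 of them. The libraries shared between 1 and 5 barcodes per pair, and 3 members had such a barcode, which left 172 when they were removed.

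The members were of unequal depth and some carried RNA of other cell types. Library totals were 5513953 and 5684819 UMIs for control and 13749657 and 15619962 for NASH, while the median member held 3330 and 2376.5 UMIs in control and 4002.5 and 3507.5 in NASH. Lists of macrophage, dendritic, endothelial, and stellate or cholangiocyte genes were summed in each member. At least 10 UMIs per 1000 of the macrophage or dendritic list, or at least 2.5 per 1000 of the endothelial or the stellate and cholangiocyte list, were found in 49 of the 175 members (28.0%): 9, 3, 22 and 15 in control 1, control 2, NASH 1 and NASH 2. These limits were chosen after seeing the data. Such members had a median of 6573 UMIs against 2843.5 in the others, and held 33.6% of the member UMIs in control and 49.4% in NASH.

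**Figure D1:**
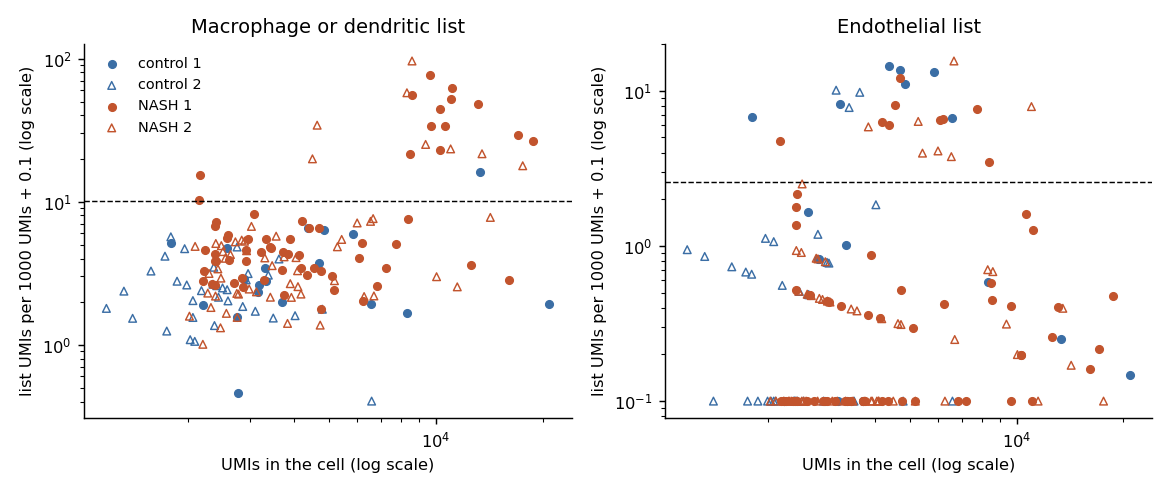
UMIs of the macrophage or dendritic list (left, the higher of the lists) and of the endothelial list (right) per 1000 UMIs, plus 0.1, in each of the 175 T cells against the cell's UMIs, both axes logarithmic, with the limits of 10 and 2.5 per 1000 dashed. Most cells above the left limit came from NASH libraries and were deep, while cells above the right limit came from all 4 libraries.

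As the plot of list UMIs per cell shows, myeloid RNA was unevenly spread: 23 members passed the macrophage or dendritic limit, 1 in control 1, 0 in control 2, 14 in NASH 1 and 8 in NASH 2. Endothelial RNA passed its limit in 26 members, 7, 3, 9 and 7. Summed over all members, the macrophage list made up 2.88 and 2.19 UMIs per 1000 in control and 11.8 and 8.86 in NASH, and the dendritic list 2.82 and 0.860 against 12.9 and 9.79. In the 126 members below the limits (10, 31, 42 and 43) the macrophage list was at 2.1 and 2.1 against 3.55 and 2.96, and the dendritic list at 0.567 and 0.856 against 1.59 and 1.19, so NASH libraries still held more. The doublet caller Scrublet marked 0, 2, 1 and 0 members, and the part of second cells in this RNA was not tested. These 126 are called members without other-lineage RNA, and each gene value below is over all members unless it is said to be over these. In control 1, 1 of the 10 held 20906 of their 47597 UMIs. Control 1 values over these members thus rest in large part on that cell.

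T cells made up 1.44% and 2.37% of kept cells in control 1 and control 2, and 4.02% and 3.07% in NASH 1 and NASH 2. The groups did not overlap, at 1.90% ± 0.656 and 3.55% ± 0.669 (SD, n = 2 each), but the log2 ratio of 0.89 (SE 0.473) did not pass edgeR's quasi-likelihood test on cell numbers (adjusted p = 0.114). With every cell thinned to 1000 UMIs the rule found 0.842%, 1.97%, 2.20% and 1.70% of cells, and the groups then overlapped, with a log2 ratio of 0.45 (adjusted p = 0.426). The ratio was 0.17 (adjusted p = 0.837) with at least 500 genes and at most 5% mitochondrial UMIs, 0.48 with no C1q UMI allowed and 0.58 without control 1, all by the same test and none passing. Over all deposited barcodes it was 1.13 and passed (adjusted p = 0.0364).

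CD8 T cells took a larger share of the NASH libraries. The CD8 calls were 3, 3, 18 and 20 cells, or 0.218% ± 0.0130 of kept cells in control and 1.10% ± 0.05 in NASH (SD, n = 2 each), a log2 ratio of 2.29 (SE 0.642; edgeR's quasi-likelihood test, adjusted p = 0.00842). CD4 calls were 2, 6, 10 and 6 cells, with a log2 ratio of 0.67 (adjusted p = 0.492), and cells with neither co-receptor were 14, 25, 35 and 30, with a log2 ratio of 0.42 (adjusted p = 0.492). Both co-receptors were found in 0, 0, 1 and 2 cells. Among T cells, CD8 calls were 15.8%, 8.82%, 28.1% and 34.5%, with no overlap between diets (exact permutation test, two-sided p = 0.3333, the smallest that 2 against 2 libraries allow).

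The CD8 share was lower at matched depth. With the members thinned to 1000 UMIs after they were chosen, CD8 calls were 10.5%, 8.82%, 12.5% and 22.4% of T cells. At 500 UMIs they were 10.5% and 0% in control and 15.6% and 8.62% in NASH, and the diets overlapped (exact permutation test, p = 0.667). Thinning every kept cell and applying the rule again left 11, 28, 35 and 32 T cells. The log2 ratio of CD8 cells over kept cells was then 1.19, which did not pass. Leaving out any 1 library also ended the call (log2 ratios 2.23 to 2.35, adjusted p 0.0713 to 0.128). Without other-lineage RNA the CD8 cells were 2, 3, 10 and 16, with a log2 ratio of 1.99 (adjusted p = 0.0435).

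**Figure D2:**
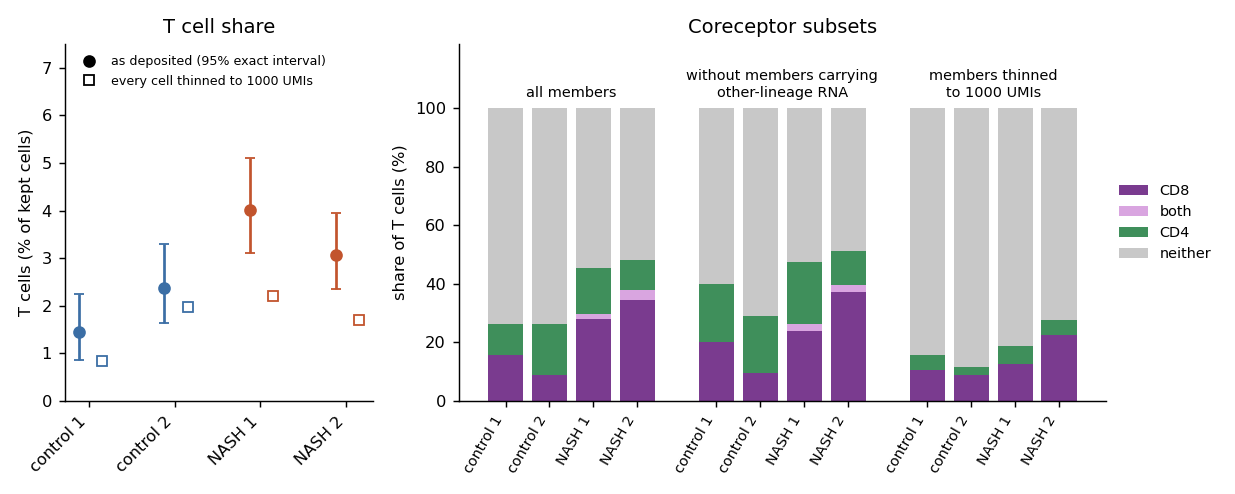
Left, T cells as a percentage of kept cells in each library, as deposited with 95% exact binomial intervals. Open squares are from thinning every cell to 1000 UMIs and applying the rule again. Right, CD8, CD4, both and neither as percentages of the T cells of each library. The blocks are all members as deposited, members without other-lineage RNA, and members thinned to 1000 UMIs after they were chosen. CD8 cells were 28.1% and 34.5% of T cells in NASH as deposited and 12.5% and 22.4% after thinning.

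Over all members, 6 of the 16 genes that rose with the NASH diet were on the macrophage or dendritic list: Lyz2, H2-Aa, H2-Eb1, Csf1r, Ctss and C1qb, the last of which the rule used. UMIs were summed per library and 2544 genes were tested (edgeR's quasi-likelihood test, adjusted p threshold 0.05). Of these genes 25 passed (0.983%), 16 higher (0.629%) and 9 lower in NASH (0.354%), and 302 had an unadjusted p under 0.05. Leaving out control 1, control 2, NASH 1 or NASH 2 gave 186, 197, 44 and 64 genes. The libraries of the diets did not overlap for 44.3% of the genes tested.

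Lyz2, the lysozyme of macrophages and monocytes, was at 149 and 172 CPM (UMIs of the gene per 1000000 UMIs of the summed members) in control and 2866 and 1367 in NASH, a log2 fold change of 3.73 (SE 0.43, adjusted p = 0.032). H2-Aa, an MHC class II chain of antigen-presenting cells, was at 269, 91.7, 2317 and 1816 CPM (3.50, SE 0.37, adjusted p = 0.0143). Lpl, lipoprotein lipase, was at 9.95, 22.9, 411 and 276 CPM (4.39, SE 0.50, adjusted p = 0.0143). All NASH libraries lay above all control libraries for these genes. The other genes named among the largest rises were H2-Eb1, an MHC class II chain, Cd63, a lysosomal tetraspanin, Csf1r, the receptor for macrophage growth factor, Ctss, the lysosomal protease cathepsin S, Tgfbi, a secreted matrix protein, Aif1, an actin-binding protein, and Lst1, a leukocyte membrane protein. The macrophage list had 4 of 12 tested genes higher and the dendritic list 2 of 6, beside 0.629% of all genes, with median log2 fold changes of 1.77 and 2.49, while none of 12 endothelial genes passed (median -1.10). Among the 4 macrophage genes, C1qb is a gene of the rule, so its call supports nothing. The macrophage list also holds C1qa and C1qc, which the rule used too. Members carrying other-lineage RNA held 92.3% of the Lyz2 UMIs of NASH members, 95.2% of those of H2-Aa and 93.8% of those of Lpl. Lyz2 and H2-Aa are on the lists that set these members apart, so their shares follow in part from that choice. Rspo3, an R-spondin that amplifies Wnt signals and is made by central-vein endothelium, was at 19.9, 34.4, 411 and 276 CPM (3.68, SE 0.45, adjusted p = 0.017), but its UMIs lay in 1, 1, 7 and 8 cells, and 98.7% of the NASH UMIs were in members carrying other-lineage RNA. Serinc3 and Wdr89 were the named genes that fell, by 1.25 (adjusted p = 0.0447) and 1.32 (adjusted p = 0.0324) on the log2 scale, and the other 7 were ribosomal protein or Gm-numbered genes.

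Without other-lineage RNA, 8 of 1454 genes passed (0.55%; edgeR's quasi-likelihood test), 3 of them higher (0.206%) and 5 lower (0.344%), and 135 had an unadjusted p under 0.05. The libraries of the diets did not overlap for 40.4% of these genes. The 3 that rose were Cd8b1, Ly6c2 and Apoe, and the 5 that fell were Rps27rt, Gm9843, Gm26917, Gm42418 and AY036118. Leaving out control 1, control 2, NASH 1 or NASH 2 gave 44, 57, 11 and 11 genes. Of the 16 genes higher over all members, 8 were still tested. Lyz2 then had a log2 fold change of 1.15 (adjusted p = 0.309) and H2-Aa 1.82 (adjusted p = 0.309), and Lpl was too low to test. Lyz2 and H2-Aa are on the lists that defined the limits, so their smaller values follow in part from the removal. Lgals3, galectin-3, changed sign, from 1.17 over all members (adjusted p = 0.0805) to -1.04 (adjusted p = 0.249).

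**Figure D3:**
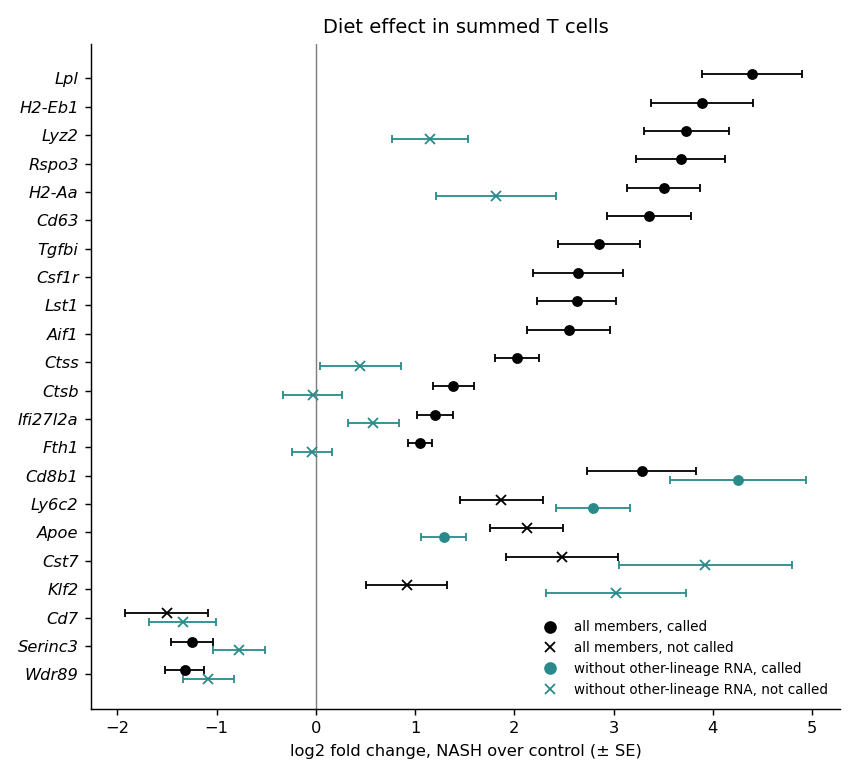
Log2 fold changes, NASH over control, with standard errors from edgeR for summed T cells, over all 175 members (black) and over the 126 without other-lineage RNA (teal), with circles for genes at adjusted p under 0.05 and crosses for the others. Genes with no teal mark were too low to test there, and among the teal marks Cd8b1, Ly6c2 and Apoe were called.

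Cd8b1, the beta chain of the CD8 co-receptor, was higher in NASH both with and without the members carrying other-lineage RNA. Its UMIs over all members were 3, 1, 59 and 72 in control 1, control 2, NASH 1 and NASH 2, or 29.8, 11.5, 165 and 258 CPM (log2 fold change 3.28, SE 0.55, edgeR adjusted p = 0.043). Without other-lineage RNA it was at 21.0, 13, 226 and 424 CPM from 1, 1, 38 and 65 UMIs (4.26, SE 0.68, adjusted p = 0.00813). Both NASH libraries lay far above both controls, but with 2 control UMIs the count ratio of 20.0 had a 95% exact interval from 5.39 to 167. The CD8 calls rest on the same UMIs, so the CD8 share and the Cd8b1 level are not independent. DESeq2 put the adjusted p at 0.0558 over all members and 0.0678 without other-lineage RNA. Cd8a, the alpha chain, was at 49.7, 34.4, 92.4 and 79.0 CPM (1.02, SE 0.45, adjusted p = 0.434). With members thinned to 1000 UMIs, Cd8a was found in a mean of 5.57% of control and 2.42% of NASH T cells. Cd8b1 was then found in 4.10% and 17.5%. Without thinning, the Cd8a shares were 8.20% and 17.1%, so their order depended on depth. Among the members without other-lineage RNA, 13 cells had UMIs of both chains, 16 of Cd8b1 alone and 4 of Cd8a alone. By library, Cd8b1 alone was found in 0, 1, 4 and 11 cells and Cd8a alone in 1, 2, 0 and 1. In mm10, Cd8b1 (ENSMUSG00000053044) is on chr6:71322788-71337494, plus strand, and Cd8a (ENSMUSG00000053977) on chr6:71373427-71379173, plus strand.

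Ly6c2, a GPI-anchored surface antigen of the Ly6C family, was the other gene of T cell biology that rose. Over all members it was at 59.7, 172, 358 and 467 CPM (1.87, SE 0.42, edgeR adjusted p = 0.108, not passing). Without other-lineage RNA it had 3, 9, 106 and 107 UMIs, or 63.0, 117, 630 and 699 CPM (2.80, SE 0.37, adjusted p = 0.00229), and it passed with each library left out (2.5 to 3.47) and with DESeq2 (adjusted p = 0.00318). The diets did not overlap, and the NASH libraries lay close together. The monocyte and neutrophil list, whose cells also express Ly6c2, includes Ly6c2 itself. It was at 0.462 and 1.15 UMIs per 1000 in these control members and at 0.933 and 1.18 in NASH. Ly6c2 made up most of the NASH values. Of the 30 UMIs of S100a8, another gene of the list, in control 2 members, 29 lay in 1 cell. The list overlapped between diets, but a monocyte source was not tested by it. Ly6c1 is a near-identical neighbour on chromosome 15 and had 1, 0, 2 and 4 UMIs in members, so how reads were split between the copies is uncertain.

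A share of cells with a UMI gave the same order at matched depth. With the members thinned to 1000 UMIs after they were chosen, Ly6c2 was found in 5.26% and 8.82% of control T cells and in 17.2% and 27.6% of NASH T cells. The difference was 15.3 points (exact permutation p = 0.3333, the smallest possible). C1q-high cells without Cd3, taken as cells that should lack T cell genes, gave 3.00%, 3.34%, 2.88% and 2.26% at the same thinning. Their median depth before thinning was 3286, 2887, 8617 and 8160 UMIs. At 500 UMIs per cell the Ly6c2 difference was 4.86 points.

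Gzmk, granzyme K, a serine protease of effector-memory T cells, was found in NASH libraries. It had 0, 0, 36 and 20 UMIs over all members, at least 5.51-fold higher in NASH against a floor of 3 UMIs over the control group (edgeR adjusted p = 0.0749, not passing). Without other-lineage RNA it had 0, 0, 23 and 14 UMIs, at least 4.78-fold higher (adjusted p = 0.0837). The 2 control sums held 187735 member UMIs in all, against 635973 in NASH, so low levels in control were not detectable at this depth. Thinned to 1000 UMIs, 9.38% and 5.17% of NASH T cells had a Gzmk UMI, and none of the C1q-high cells without Cd3 did.

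The sequences before the start sites of Gzmk and Ly6c2 are shown because Ly6c2 rose and Gzmk had UMIs in NASH libraries only. Of the 18 Gzmk cells without other-lineage RNA, all in NASH, 8 also held Ly6c2. Beside this, Ly6c2 was found in 33 of all 85 NASH members without other-lineage RNA (38.8%) and in 14 of the 26 CD8 cells among them (53.8%). Whether the 2 genes go together was not tested. The 250 bases upstream are from RefSeq, GRCm38.p6, 5′ to 3′ on the gene's strand. They were searched for the T-box core AGGTGT and the Runx core TGTGGT on both strands, and capitals mark matches.
Gzmk, chr13:113180966-113181215, minus strand: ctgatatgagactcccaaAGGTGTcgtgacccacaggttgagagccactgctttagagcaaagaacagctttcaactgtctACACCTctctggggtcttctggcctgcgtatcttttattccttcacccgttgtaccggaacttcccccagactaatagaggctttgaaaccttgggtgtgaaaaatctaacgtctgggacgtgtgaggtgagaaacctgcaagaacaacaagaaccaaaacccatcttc
Ly6c2, chr15:75111972-75112221, minus strand: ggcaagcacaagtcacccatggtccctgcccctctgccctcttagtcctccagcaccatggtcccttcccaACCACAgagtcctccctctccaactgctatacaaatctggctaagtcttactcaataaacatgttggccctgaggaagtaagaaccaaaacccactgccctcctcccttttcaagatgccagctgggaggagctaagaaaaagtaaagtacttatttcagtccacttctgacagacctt
The Gzmk sequence held 2 matches to the T-box core, which 11.8% of 32851 promoters of this length contain, and the Ly6c2 sequence held 1 to the Runx core, contained in 14.0%. The Gzmk stretch lies within the annotated span of Gzmk (ENSMUSG00000042385, chr13:113171608-113225908), since longer transcripts start further upstream, and that of Ly6c2 (ENSMUSG00000022584, chr15:75108158-75111970) lies just before the gene. A match is a description of letters and not a binding site.

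**Figure D4:**
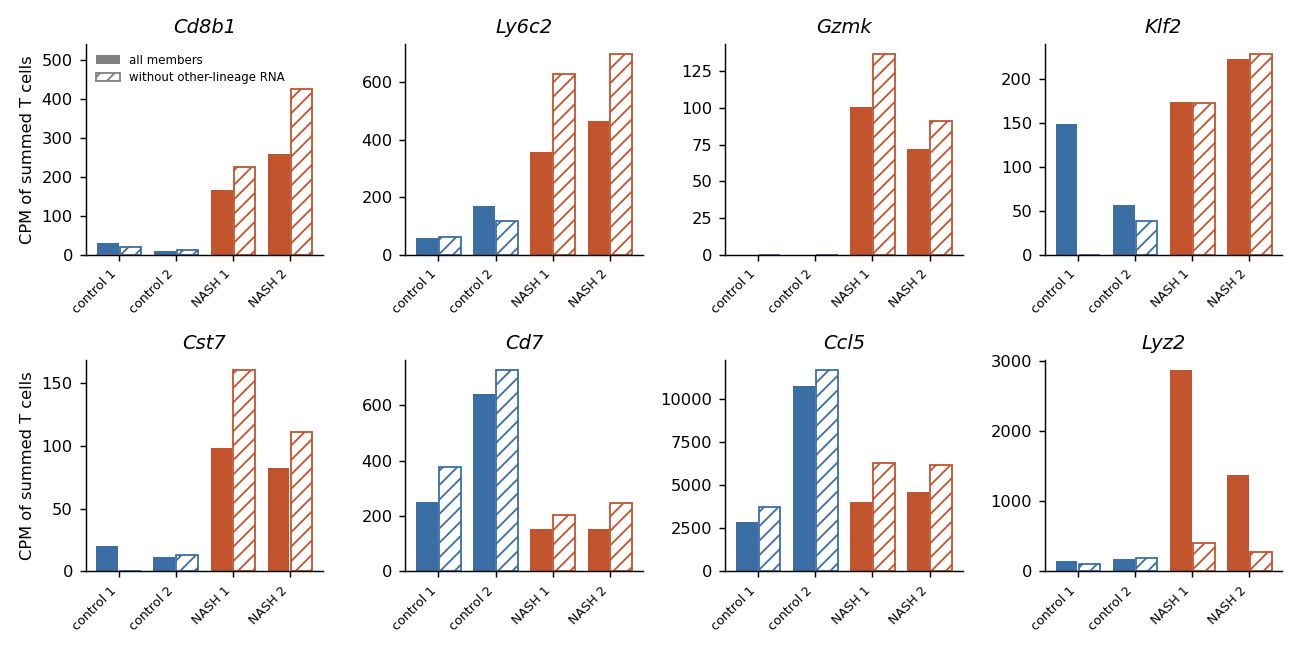
CPM of summed T cells in each library for 8 genes, over all members (filled) and over members without other-lineage RNA (hatched), on axes that start at 0. For Ly6c2 the hatched NASH bars reach 630 and 699 CPM against 63.0 and 117 in control.

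Other cytotoxic genes did not pass. Cst7, cystatin F, an inhibitor of granule proteases, was at 19.9, 11.5, 98.0 and 82.5 CPM (2.48, edgeR adjusted p = 0.112), and at 0, 13, 160 and 111 CPM without other-lineage RNA (adjusted p = 0.0739). Ccl5, the chemokine RANTES and one of the most abundant T cell transcripts here, was at 2835, 10744, 4036 and 4579 CPM (-0.65, SE 0.80, adjusted p = 0.803). Control 2 was the highest and control 1 the lowest, so the NASH libraries lay between them, and without control 2 the Ccl5 fold change was 0.69. Nkg7, a granule membrane protein, was at 468, 1433, 792 and 1037 CPM (-0.04, adjusted p = 0.998). Gzma and Gzmb, granzymes A and B, had log2 fold changes of -0.17 (SE 0.94) and -0.55 (SE 0.66), and both overlapped between diets. Cx3cr1, a receptor of effector T cells and macrophages, had 0, 0, 32 and 21 UMIs, but 88.7% of them were in members carrying other-lineage RNA. Of the 23 listed cytotoxic genes 13 were tested and none passed in either direction, with 3 at unadjusted p under 0.05, and their median log2 fold change was -0.04 beside 0.01 over all genes.

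Genes of recirculation and of innate-like T cells gave further values that did not pass over all members. Klf2, a transcription factor that keeps T cells in circulation, was at 149, 57.3, 174 and 223 CPM (0.91, edgeR adjusted p = 0.436) and, without other-lineage RNA, at 0, 38.9, 172 and 228 CPM (3.02, SE 0.71, adjusted p = 0.0837). Klf2 is also made by endothelium and macrophages. Cd7, a costimulatory surface protein of T and NK cells, was at 249, 642, 154 and 154 CPM (-1.50, SE 0.42, adjusted p = 0.199), and both control libraries lay above both NASH libraries. Klrb1c, the NK1.1 antigen of NKT cells, had a log2 fold change of -1.59 (adjusted p = 0.247). Of the 17 naive and recirculating genes 10 were tested and none passed, and without other-lineage RNA 1 of 7, Ly6c2, rose, beside 0.206% of all genes tested there. Of the 18 NKT and innate-like genes 12 were tested and none passed, and Ly6c2, which stands on this list too, was again the gene that rose without other-lineage RNA.

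The receptor and its signalling genes did not pass in either direction. Of 25 such genes 19 were tested, with a median log2 fold change of -0.07, and the gene with the smallest p, Fyn, a kinase of the receptor complex, was at 179, 183, 98.0 and 104 CPM (-0.83, edgeR adjusted p = 0.32). Runx3, which sets the CD8 lineage programme, was at 29.8, 91.7, 115 and 151 CPM (1.17, adjusted p = 0.407). Cxcr6, the receptor that holds T cells in liver sinusoids, had a log2 fold change of 0.32 (SE 0.51) and Il7r, the IL-7 receptor, one of -0.20 (SE 0.46). Tissue residence genes (9 of 23 tested), inhibitory receptors (3 of 14), regulatory T cell genes (5 of 14), cytokines (4 of 23) and gamma-delta or type 17 genes (5 of 18) held no gene that passed.

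Programmes shared with other cells gave 2 calls. Ifi27l2a, an interferon-stimulated gene, was at 507, 470, 1198 and 1026 CPM (1.20, edgeR adjusted p = 0.0324), the 1 call among 13 interferon genes tested of 24, beside 0.629% of all genes, with a list median of 0.54. Without other-lineage RNA Ifi27l2a was at 0.58 (adjusted p = 0.501) and no listed interferon gene passed. Lpl was the 1 call among 10 lipid genes tested of 19, and 93.8% of its NASH UMIs were in members carrying other-lineage RNA. Slfn2, a regulator of T cell quiescence that is also interferon-stimulated, was at 1.76 (adjusted p = 0.11). Proliferation genes (14 of 19 tested) had a median of -0.81 and none passed, with Hmgb2, a chromatin protein of dividing cells, at -0.74 (adjusted p = 0.229) and Top2a, topoisomerase II alpha, at -1.36 (adjusted p = 0.291). In control 1 a single cell held 514 UMIs of this list, 17 of them Top2a, and 20906 of the 100522 member UMIs. Heat shock and other stress genes (18 of 24 tested), glycolysis (10 of 16), oxidative phosphorylation (28 of 28), actin cytoskeleton (25 of 25), MHC class I (14 of 15) and glucocorticoid response genes (4 of 12) held none that passed. Hspa1b, an inducible HSP70, had 2, 1, 37 and 185 UMIs, so NASH 2 stood above NASH 1.

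Apoe, apolipoprotein E, rose without other-lineage RNA from 1008 and 661 CPM in control to 2103 and 1821 in NASH (1.29, SE 0.23, edgeR adjusted p = 0.0112). It is on the macrophage list that defined the limits, and DESeq2 gave an adjusted p of 0.0589, so its value is a description.

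The cells with no UMI of Cd8a or Cd8b1 could be tested alone, while CD8 cells could not, with 3 cells in each control library. Among the CD8-negative cells 32 of 1778 genes passed (1.80%), 16 higher and 16 lower (0.9% each; edgeR's quasi-likelihood test). Leaving out control 1 gave 155, control 2 169 and NASH 2 52. Without other-lineage RNA 4 of 1012 passed (0.395%): Apoe and Ly6c2 rose (0.198%), and Rps27rt and Gm26917 fell (0.198%). Ly6c2 was at 71.5 and 85.1 CPM in control and 655 and 644 in NASH in these cells (2.96, SE 0.40, edgeR adjusted p = 0.00165). Its rise was thus also measured among cells with no CD8 UMI. A CD8 cell whose Cd8a and Cd8b1 were not captured falls in this group. Thinning the members to 1000 UMIs lowered the CD8 calls from 18 and 20 cells to 8 and 13 in NASH 1 and NASH 2. The CD8-negative group may therefore hold CD8 cells. Control 1 held only 8 CD8-negative cells without other-lineage RNA, and 1 of them held 20906 UMIs.

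Cell by cell, among the 126 members without other-lineage RNA, Ly6c2 was found in 14 of 26 NASH CD8 cells, 3 of 14 NASH CD4 cells and 16 of 43 NASH cells with neither co-receptor, against 1 of 5, 0 of 8 and 4 of 28 in control. Gzmk was found in 9 and 9 cells of NASH 1 and NASH 2 and in no control cell, and 12 of the 18 were CD8. Gzma was found in 3 of 5 control CD8 cells and in 2 of 26 NASH CD8 cells, and Cd7 in 5 of 5 and 8 of 26. Control CD8 cells were too few for a test, and the median depth of these members was 2445 UMIs in control and 2983 in NASH.

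**Figure D5:**
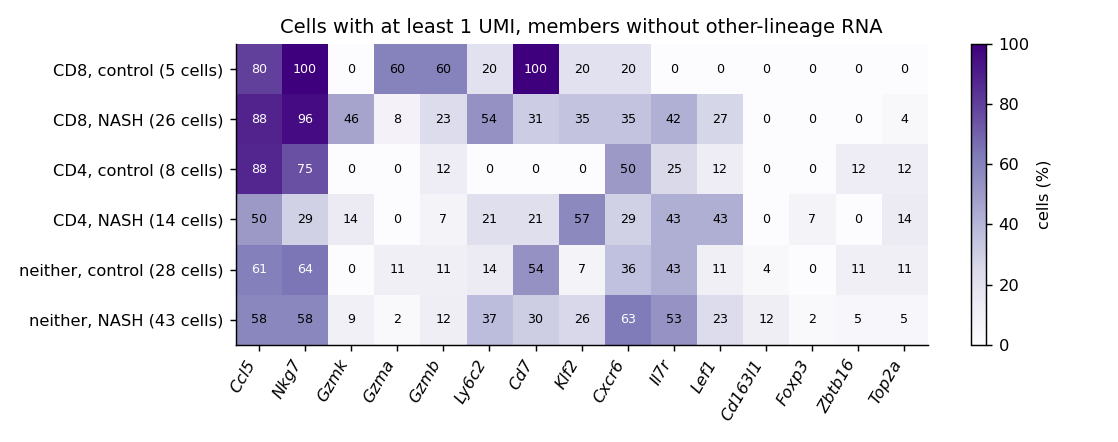
Percentage of cells with at least 1 UMI of each gene, by subset and diet, among the 126 members without other-lineage RNA, not thinned, with the number of cells in each row label. Ccl5 and Nkg7 were found in most CD8 cells of both diets, and Gzmk in 12 of 26 NASH CD8 cells and 0 of 5 control CD8 cells.

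Several cytotoxic genes were higher in CD8 cells than in the other members. Over all members, Gzma was 14.4-fold higher per UMI in CD8 than in CD8-negative cells, with 9, 18, 96 and 15 UMIs in CD8 cells of the 4 libraries and 0 in CD4 cells. Gzma lay in few cells: 1, 5, 5 and 4 members had a UMI, and the top cell held 100%, 53.3%, 45.8% and 78.9% of a library's UMIs. Gzmb was 4.14-fold, Ccl5 3.03-fold (9596 against 3165 CPM) and Nkg7 3.03-fold higher (1798 against 594 CPM). The remaining named genes higher in CD8 cells of all 4 libraries were Slfn1, Syne1, Apeh and Yrdc, at 2.72-fold to 3.54-fold. Klrd1, the CD94 chain of NK receptors, was 2.00-fold higher. Rora, a transcription factor of innate-like and type 17 cells, was at 32.5 CPM in CD8 and 166 CPM in CD8-negative cells. The named genes lower in CD8 cells (Clu, Ltb4r1, Tspan32, Nfia, Usp12, Tnfrsf25, Dnajc21, Urm1, Tmem245 and Prkx) each had at most 2 CD8 UMIs, and 106 of the 107 Clu UMIs of NASH 2 lay in 1 cell. These values are a description, since the split used the same cells. Of 4548 genes with at least 20 UMIs, 687 had the same direction in all 4 libraries, 134 higher and 553 lower in CD8 cells. The control CD8 sums held only 10039 and 6582 UMIs, against 90483 and 80631 in CD8-negative cells. A low gene missed in these CD8 sums counted as lower, and 1 UMI could count as higher, as for Slfn1 and Yrdc. The split of 134 and 553 thus depends on these small sums and is no measure of a subset difference.

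Rarer states appeared in single cells. Cd163l1, a scavenger receptor described on gamma-delta T cells in mouse, had 0, 3, 19 and 4 UMIs over all members, in 7 cells that all had neither co-receptor, and 0, 3, 15 and 4 UMIs in 6 cells without other-lineage RNA. Foxp3, the factor of regulatory T cells, was found in 6 members, 5 in NASH 1 and 1 in NASH 2, of which 2, both in NASH 1, were without other-lineage RNA. It was found in no control cell (0 of 19 and 0 of 34, with 95% exact upper bounds of 17.6% and 10.3%) and in no cell thinned to 1000 UMIs. Cycling cells, taken as those with at least 50 UMIs of the proliferation list, numbered 11 of 126 (8.73%), 1, 2, 4 and 4 by library. They held 50 to 514 list UMIs, against at most 39 in the other cells, and fell in CD4 (3), CD8 (2), both (1) and neither (5). The limit is a UMI count, so it depends on a cell's depth. A CD8 cell of NASH 1 with 52 list UMIs had no UMI of the listed genes Mki67 and Top2a. Nor did a cell of NASH 2 with neither co-receptor and 50 list UMIs.

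The response of T cells was compared with that of NK or ILC1 cells and of B cells in fits with an interaction term. Against NK or ILC1 cells 7 of 2161 genes differed, all lower in T cells (0.324%; edgeR's quasi-likelihood test). For Cd7 the difference in the joint fit was -3.16 (adjusted p = 4.9e-09), beside log2 fold changes of -1.50 in T cells and 1.13 in NK or ILC1 cells from separate fits with their own scaling, though the control libraries held only 3 and 9 NK or ILC1 cells and the difference passed in 2 of 4 fits that left out a library. Leaving out control 1, control 2, NASH 1 or NASH 2 gave 45, 129, 1 and 1 genes. Against B cells 2 of 4083 genes differed (0.049%), Cxcl13 higher in T cells (0.0245%) and Hist1h2ap lower (0.0245%), and leaving out control 1, control 2, NASH 1 or NASH 2 gave 61, 111, 18 and 23. Intervals and floors given here cover counting error only.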

How the data were processed

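The 4 libraries of sorted liver immune cells were deposited as 10x matrices of gene, barcode and count. The deposited values are raw UMI counts per gene and cell, with no normalization by the authors. The submitters' processing notes name Cell Ranger, Seurat and the mm10 build, with no versions or settings. No authors' cell annotation was used. Gene positions come from GENCODE vM21 and upstream sequences from RefSeq.

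The cell filter was at least 200 genes and no more than 10% mitochondrial UMIs, and T cells were taken by the UMI rule given above. Members and gene lists were chosen with earlier results of these data known, and the limits for other-lineage RNA after the data were seen. UMIs were summed per library and tested with edgeR 4.0.16 (quasi-likelihood, robust, TMM factors, filterByExpr) in R 4.3.3, with Benjamini-Hochberg adjustment over all genes tested and a threshold of 0.05. The SE is the log2 fold change divided by the square root of F. Cell numbers were tested with edgeR over 7 classes and over the subsets. A subset was tested only where it had at least 10 cells in every library over all members; its sums without other-lineage RNA could hold fewer. DESeq2 1.42.0 was an alternative. Exact intervals (Clopper-Pearson, 95%) and permutation tests used scipy 1.17.1. Doublets were called with Scrublet in scanpy 1.11.5 (0, 2, 1 and 0 members) and left in. The scripts were tested on simulated data.

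Named genes were the 12 largest changes each way among called genes with separated libraries and at least 50 CPM, with mitochondrial, ribosomal protein, Gm-numbered and Rik genes counted only, the 4 smallest p of each list, a set of lineage genes, the interactions that passed, and the 10 largest CD8 ratios each way. The 5 genes that fell without other-lineage RNA, Cd163l1, Klrd1, Ly6c1 and the genes whose direction depends on the processing were named outside this rule after their values were seen. Alternatives were other scalings, filters, gates, tools, replicate numbers as a block and each library left out.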

Additional observations from a re-analysis of the deposited data

Results flagged for a closer look

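In 9 cases the diet effect in T cells differed from that in another class by an interaction term fitted with edgeR. Against NK or ILC1 cells, the log2 difference was -5.97 for Hist1h2ap (a replication-dependent histone, adjusted p = 1.09e-10), -3.16 for Cd7 (adjusted p = 4.9e-09) and -0.84 for Tmsb10 (thymosin beta 10, adjusted p = 0.00765). It was -2.04 for S100a4, -1.05 for Sh3bgrl3, -2.22 for Hmgb2 and -0.99 for Rpl3, each at an adjusted p of 0.0493. The control NK or ILC1 sums came from 3 and 9 cells, and with other-lineage RNA left out of both classes Hist1h2ap and Cd7 still passed among these genes. Those control sums held 0 and 1 Hist1h2ap UMIs, against 42 and 130 in NASH, so -5.97 rests on counts near the floor. With 1 library left out the Hist1h2ap difference ran from -12.1 to -4.96, so its size is not well measured. Hist1h2ap passed in 4 of 4 fits that left out a library and each of the others in 2 of 4.

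Against B cells, the log2 difference was 12.05 for Cxcl13, a B cell-attracting chemokine, and -1.99 for Hist1h2ap. The B cells of both NASH libraries had 0 Cxcl13 UMIs, after 4 and 32 in control, so 12.05 depends on the fit's prior count and is no measure of size. All 461 Cxcl13 UMIs of NASH 2 T cells lay in 1 cell, which carried other-lineage RNA, and all 260 Hist1h2ap UMIs of control 1 T cells lay in 1 cell. The top T cell also held 61.25%, 95.1% and 32.1% of the Hist1h2ap UMIs of control 2, NASH 1 and NASH 2. Cxcl13 passed in 3 of 4 fits that left out a library (1.10 to 12.67) and Hist1h2ap in 4 of 4.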

How the results depend on the processing

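Depth limits these results: the control T cells held 187735 UMIs in 53 cells, and with 2 libraries a group no exact permutation test could go below 0.3333. The number of genes changed in T cells (25) was 167 with no filter, 100 with a single Cd3 UMI required, 5 with no C1q UMI allowed, 12 at 500 genes and 5% mitochondrial UMIs, 43 over all deposited barcodes, 48 without Scrublet doublets, and 8 without other-lineage RNA, where DESeq2 called 6. With 1 library left out it was 44 to 197, and 11 to 57 without other-lineage RNA. Deviations of same-numbered libraries from their group means had a correlation of -0.105. With 2 libraries a group, crossed numbers must give the opposite value, 0.105, so whether the numbers pair libraries cannot be told. A replicate block gave 62 genes, and 131 with the numbers crossed. In CD8-negative cells the count (32) was 49 with a lower expression filter, 52 to 169 with control 1, control 2 or NASH 2 left out, 0 with no C1q UMI allowed, 4 without other-lineage RNA and 119 with the replicate block. The 0 comes from a fit with fewer cells. Differences from NK or ILC1 cells (7) were 32 with the lower filter, 1 to 129 with 1 library left out and 3 without other-lineage RNA. Differences from B cells (2) were 39, 18 to 111, and 0 with no C1q UMI allowed.

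The log2 ratio of the T cell share (0.89) was 1.13 over all deposited barcodes and then passed (adjusted p = 0.0364), and was 0.17 with the stricter cell filter, 0.48 with no C1q UMI allowed, 0.45 thinned and 0.58 to 1.29 with 1 library left out. That of the CD8 share (2.29) no longer passed with 1 library left out (2.23 to 2.35), with no C1q UMI allowed (1.18), with the stricter cell filter (1.32), thinned (1.19) or with the replicate block (2.29, adjusted p = 0.0895). The CD4 ratio (0.67) turned to -1.12 with no C1q UMI allowed, -0.53 with the stricter cell filter, -0.63 thinned and -0.20 as a share of T cells, and that of cells with neither co-receptor (0.42) to -0.12 with the stricter filter and -0.46 as a share of T cells. The difference in cells with a UMI was 25.4 points for Cd8b1 and 22.1 for Gzmk without thinning, 4.86 for Ly6c2 and 3.99 for Gzmk at 500 UMIs, and 2.16 for Ccl5 without thinning (main -2.29).

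Genes that turned sign were Ccl5 (main -0.65; 0.69 without control 2, 0.82 without control 2 and other-lineage RNA, 0.056 without Scrublet doublets, and -1.31 without control 1), Ifi27l2a (-1.07 with no C1q UMI allowed), Lgals3 (-0.018 with a C1q limit of 2 per 1000) and, without other-lineage RNA, Lgals3 (-1.04, from -1.21 to -0.86 with 1 library left out, among them -0.97 without control 1; DESeq2 -1.05), Ctsb (-0.033; -0.024 without control 2, -0.041 without NASH 1, -0.010 without NASH 2; DESeq2 -0.041), Fth1 (-0.038; -0.19 without control 1, -0.0055 without NASH 1, -0.047 without NASH 2; DESeq2 -0.041) and C1qb (-0.15 without control 1). The cause was not tested.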
